A study of Mus musculus with 14 samples.

Results

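The 46 genes described here encode the degradative machinery of the lysosome, and each was measured in macrophages sorted from the colonic lamina propria of mice. They were chosen by name as the rows of the deposited count table that stand for lysosomal proteases, hydrolases, membrane proteins, proton pump subunits and their regulators, and they are 46 of 24982 genes listed there. All 46 were found in the table, and all 46 passed the filter on low counts. The table writes mouse gene names in capitals, and that spelling is kept here. By role, they comprise 14 cathepsins and other proteases, 1 secreted cathepsin inhibitor, 6 membrane proteins, 11 glycosidases and sulfatases, 5 lipid hydrolases and their activators, 3 transcription factors of the MiT/TFE family and 6 subunits of the vacuolar H+-ATPase (V-ATPase).

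The study asked whether macrophages that lack the IL-10 receptor differ in their transcripts when CCR2, the chemokine receptor that monocytes use to leave the bone marrow, is missing as well. All mice were 5 weeks old and of C57BL/6 strain carrying the Cdcs1 colitis susceptibility locus. WT mice carried Cdcs1 alone, IL10RAKO mice were Cdcs1, Il10ra -/-, DKO mice were Cdcs1, Il10ra -/-, Ccr2 -/-, and the CCR2KO mouse was Cdcs1, Ccr2 -/-. Both deletions are germline, so every cell of the animal carries them, and the sorted cells were live, CD45+, Ly6G-, CD103-, CD64+, CD11b+, MHCII+ and Ly6C-. Each library came from a separate mouse, with 4 WT, 4 IL10RAKO and 4 DKO mice in every comparison. A further WT animal, mouse 11, and the CCR2KO animal, mouse 6, are given as single values, because the deposited normalised table leaves both out. The 12 compared libraries held 13085287 to 21216468 counted reads each, with 13485 to 15450 genes detected. The library of WT mouse 11 stood apart, with 12153000 reads, 11670 genes detected and epithelial markers at 2995 CPM, and calls on the 46 genes that change with it in the fit are given both ways. The targeted genes followed the labels: IL10RA stood at 216.7 to 379.3 CPM, the normalised read count relative to the TMM-scaled library size, in WT mice, 4.89 to 11.2 CPM in IL10RAKO mice and 3.41 to 7.59 CPM in DKO mice. CCR2 stood at 512.5 to 700.2 CPM in WT mice, 360.8 to 626.9 CPM in IL10RAKO mice and 3.92 to 6.67 CPM in DKO mice. The 8 macrophage marker genes examined, among them CSF1R and the complement genes, summed to 5894 to 11346 CPM in these mice. The number called higher was 1 in each comparison with WT, and 2 were lower in DKO mice. The median log2 fold change of the 8 was -0.16 in IL10RAKO and -0.43 in DKO mice, with 3 above 0 in each. ADGRE1 stood at 641 to 885 CPM in WT and 228 to 519 CPM in DKO mice. CX3CR1 stood at 319 to 431 CPM in WT and 135 to 217 CPM in DKO mice.

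Lysosomes are acidic compartments in which proteases, glycosidases, sulfatases and lipases break down material taken up by phagocytosis or delivered by autophagy, and macrophages carry them in abundance. The V-ATPase pumps protons into the lumen at the expense of ATP, and most of the enzymes work only at that acidic pH. TFEB, TFE3 and MITF are basic helix-loop-helix factors that bind E-boxes in the promoters of many lysosomal genes and move to the nucleus when mTORC1 activity at the lysosomal surface falls.

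Taken over all 46 genes, the comparison with WT gave more genes that were higher in the knockouts than lower. In IL10RAKO mice 7 of the 46 were higher and 1 was lower at an adjusted p under 0.05 (edgeR quasi-likelihood test, Benjamini-Hochberg adjustment over 13136 genes). Of all genes tested in that comparison, 8.7% were higher and 7.1% were lower, against 15.2% and 2.17% of the lysosomal genes. In DKO mice 12 of the 46 were higher and 1 was lower, which is 26.1% and 2.17%, where 9.23% of all genes tested were higher and 9.22% were lower. Leaving out 1 mouse took the number called from 8 to 5 in IL10RAKO mice (without WT mouse 5) and from 13 to 8 in DKO mice (without DKO mouse 9). Both comparisons use the same 4 WT mice. The higher genes called in both numbered 6: CTSZ, CTSS, SCARB2, PPT1, MITF and ATP6V1B2. CST3 was called in IL10RAKO mice alone, and CTSC, CTSD, LAMP1, NAGLU, ATP6V1A and ATP6AP1 were called in DKO mice alone. CTSF was the lower gene in both. The remaining 32 were called in neither.

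The median log2 fold change of the 46 genes was 0.17 in IL10RAKO and 0.21 in DKO mice, where the median over all genes tested was -0.07 and -0.06. The IL10RAKO median was 0.109 without IL10RAKO mouse 8 and 0.111 without WT mouse 5. These values rest on TMM scaling, which sets library sizes so that most genes do not differ. When libraries were scaled by their totals alone, the median over all genes fell by 0.31 and 0.25 on the log2 scale, and the medians of the 46 genes became -0.15 and -0.05. Relative to the median of all genes they were higher by 0.24 and 0.27 under both scalings, because a change of scaling moves all genes nearly alike. With totals alone 2 lysosomal genes were higher and 5 lower in IL10RAKO mice, where 4.96% of all genes were higher and 15.9% lower. In DKO mice 5 were higher and 5 lower, where 5.69% of all genes were higher and 16.3% lower. CTSZ and CTSS stayed higher and CTSF stayed lower in both comparisons under that scaling, SCARB2, PPT1 and MITF stayed higher in DKO mice, and no other call made with TMM was kept. CTSB, LGMN and CD63 passed as lower in both comparisons under that scaling, at log2 fold changes with TMM of -0.18, -0.40 and -0.78 in IL10RAKO and -0.30, -0.61 and -0.64 in DKO mice that did not pass. MANBA in IL10RAKO and SMPD1 in DKO mice also passed as lower there. Some of these genes passed as lower under other settings as well. LGMN did so in DKO mice in 6 of 22 alternatives, among them DESeq2, at least 10 counts in every library and the fit with WT mouse 11. CD63 did so in IL10RAKO mice in 4 of 22, among them DESeq2, and SMPD1 did so in both comparisons without WT mouse 10.

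Summed over the 46 genes, lysosomal transcripts took 2.71% to 3.31% of counted reads in WT mice, 2.66% to 3.32% in IL10RAKO mice and 3.05% to 3.42% in DKO mice. The share of reads thus overlapped between the groups. The 95% Wilson interval of each share reached at most 0.0098 percentage points to either side, which covers counting error only. After TMM scaling the WT mice summed to 26578 ± 2576 CPM (mean ± SD, n = 4), the IL10RAKO mice to 33322 ± 4127 CPM and the DKO mice to 33313 ± 2990 CPM. The lowest IL10RAKO mouse, at 29166 CPM, lay just above the highest WT mouse, at 28866 CPM. In sorted bulk samples, a change in the cells that make up the sort and a change in RNA per cell cannot be told apart.

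**Figure D1:**
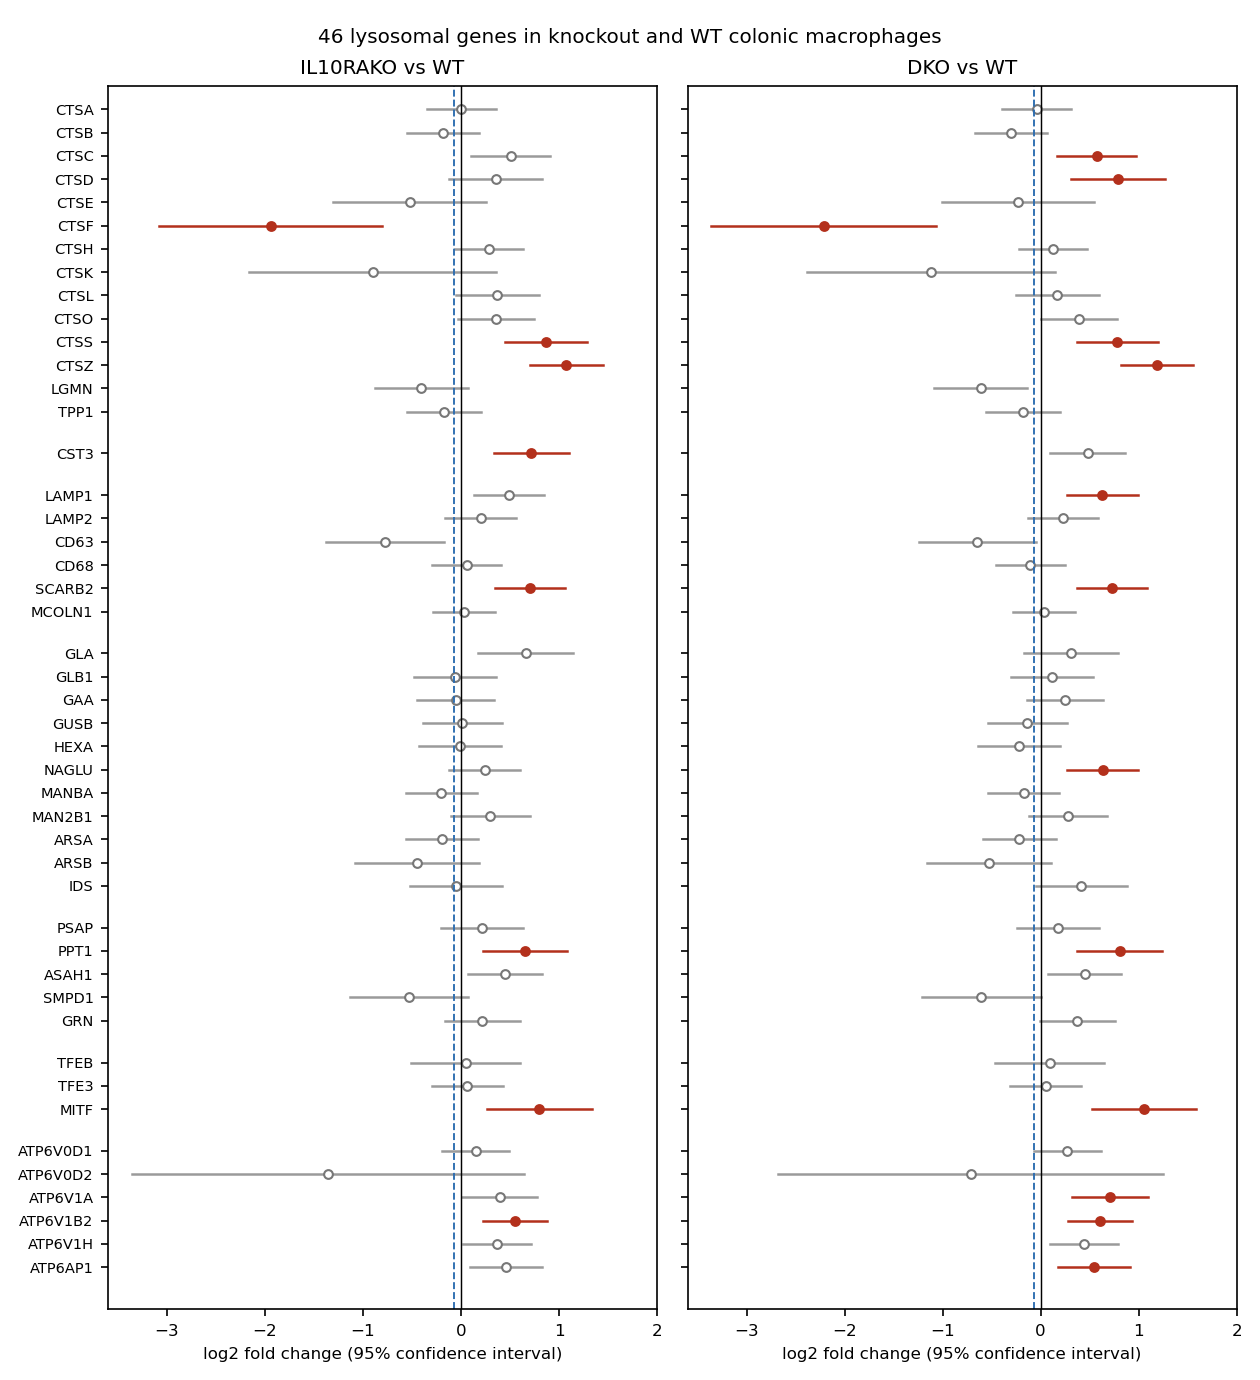
Log2 fold change (x axis) of each of the 46 lysosomal genes (y axis, grouped by role) in IL10RAKO and DKO against WT macrophages, with 95% confidence intervals from the edgeR fit of 12 mice. Filled red points are the 8 and 13 genes with an adjusted p under 0.05, open points are the others, and the dashed line is the median of all genes tested (-0.07 and -0.06).

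The promoters of the 46 genes were read from RefSeq (GRCm38.p6) in windows of 300 bases, 250 before and 50 after the start site, for the E-box CACGTG and the longer element TCACGTGA that contains it. Both motifs read the same on either strand. Windows were found for 39 of the 46 genes. CACGTG stood in the windows of 14 of them (35.9%), against 8.09% of all 27025 genes in the table. The longer element stood in 6 of them (15.4%), namely CTSA, CTSD, MCOLN1, GLA, ATP6V0D1 and ATP6V1A, against 1.12% of all genes. Of the 14 genes with an E-box, 4 were higher in DKO than in WT mice, and of the 25 without, 7 were higher. Over all genes tested, 9.23% were higher in that comparison. A match is a description of the sequence and not a measured binding site.

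The 250 bases upstream of the start site are shown for 5 genes, chosen because they were called in at least 1 comparison and differ in the number of E-boxes; the calls of LAMP1, CTSD and CTSF depend on single mice, as given with their values. CACGTG is in capitals and all sequences run 5′ to 3′ on the strand of the gene. LAMP1 (chr8:13158911-13159160, plus strand) has 4 E-boxes within its last 61 bases, CTSD (chr7:142387828-142388077, minus strand) has 2, ATP6V1A (chr16:44139260-44139509, minus strand) and CTSF (chr19:4854915-4855164, plus strand) have 1 each, and CTSZ (chr2:174439040-174439289, minus strand) has 0.
LAMP1: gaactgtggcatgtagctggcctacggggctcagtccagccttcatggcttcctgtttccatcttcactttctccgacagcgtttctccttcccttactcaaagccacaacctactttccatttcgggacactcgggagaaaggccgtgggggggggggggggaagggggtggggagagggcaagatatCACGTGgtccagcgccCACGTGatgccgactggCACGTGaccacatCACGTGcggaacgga
CTSD: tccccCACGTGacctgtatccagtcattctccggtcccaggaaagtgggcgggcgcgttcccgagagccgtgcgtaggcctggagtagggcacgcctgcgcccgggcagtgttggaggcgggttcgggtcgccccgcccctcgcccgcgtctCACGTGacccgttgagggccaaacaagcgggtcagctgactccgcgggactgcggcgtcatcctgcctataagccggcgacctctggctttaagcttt
ATP6V1A: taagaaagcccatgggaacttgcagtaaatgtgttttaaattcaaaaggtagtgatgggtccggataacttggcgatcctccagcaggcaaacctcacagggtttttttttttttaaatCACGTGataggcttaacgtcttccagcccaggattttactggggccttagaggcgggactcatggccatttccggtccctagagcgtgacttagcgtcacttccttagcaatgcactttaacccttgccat
CTSF: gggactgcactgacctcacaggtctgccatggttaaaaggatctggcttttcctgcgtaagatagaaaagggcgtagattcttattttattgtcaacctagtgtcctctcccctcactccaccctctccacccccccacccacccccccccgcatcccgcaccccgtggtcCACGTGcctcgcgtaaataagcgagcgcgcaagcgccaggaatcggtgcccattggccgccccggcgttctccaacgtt
CTSZ: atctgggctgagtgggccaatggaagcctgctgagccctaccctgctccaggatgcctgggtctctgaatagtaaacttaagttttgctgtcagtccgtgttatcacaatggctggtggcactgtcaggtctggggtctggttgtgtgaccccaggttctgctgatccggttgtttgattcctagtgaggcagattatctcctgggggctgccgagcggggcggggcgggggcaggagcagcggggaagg
LAMP1, CTSD and ATP6V1A were higher in DKO mice, as was CTSZ, which has no such hexamer in its window, while CTSF was lower with 1 E-box at 79 bases before the start site. Genes that hold the motif were thus higher, lower or not called.

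**Figure D2:**
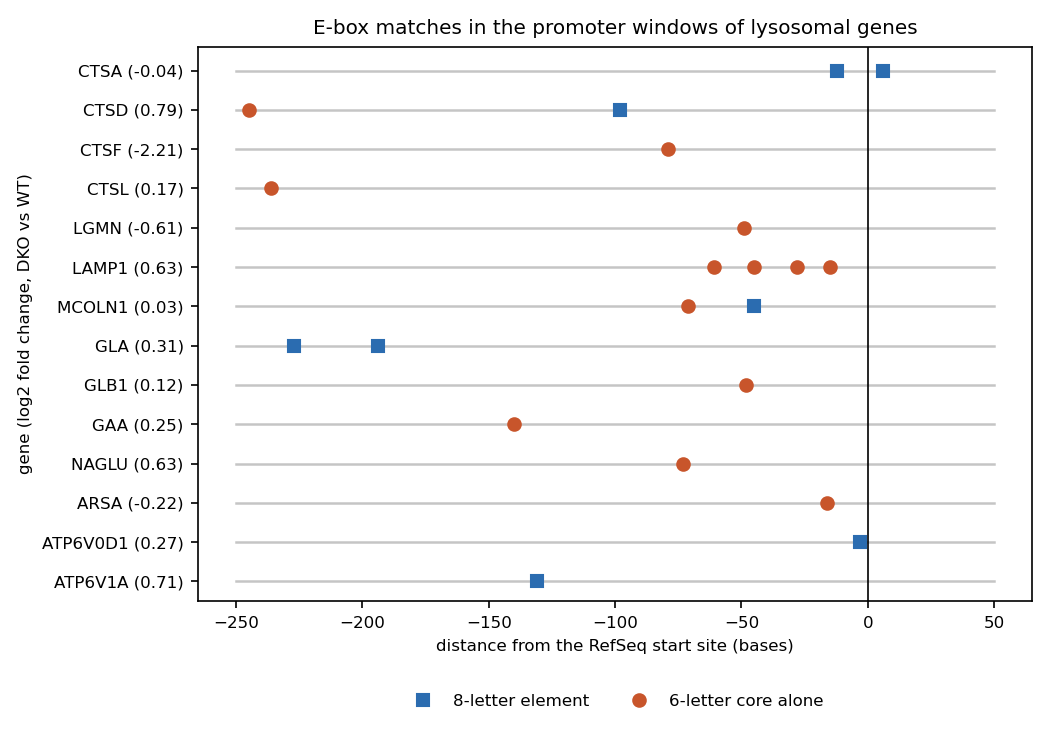
Position of each E-box (x axis, distance in bases from the RefSeq start site) in the windows of the 14 lysosomal genes that have at least 1 (y axis, with the log2 fold change of DKO against WT in brackets). Squares mark matches inside the 8-letter element (6 genes) and circles the 6-letter core alone; LAMP1 has 4 matches, and the listed fold changes run from -2.21 for CTSF to 0.79 for CTSD.

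For levels between genes, CPM was divided by the length of all annotated exons in kb. That length merges the exons of every annotated form of a gene, so the order between genes depends on the annotation. CTSB, at 6.051 kb, had 2924 to 4020 CPM in WT mice, and CTSS, at 1.358 kb, had 1875 to 2641 CPM. In WT mice PSAP, the precursor of the saposins that help degrade sphingolipids, stood highest at 1725 ± 312 CPM per kb (SD, n = 4), followed by CTSS at 1640 ± 265 CPM per kb, and these neighbours differed by less than their spread. CTSZ followed at 763 ± 68.5 CPM per kb and CST3 at 726 ± 45.1 CPM per kb, again within their spread. CTSB, CTSC, CD68, LGMN and LAMP1 came next, at means of 575, 486, 460, 425 and 373 CPM per kb, with SDs of 22.4 to 78.3 CPM per kb that overlapped from each to the next. In IL10RAKO mice CTSS had the highest mean at 2987 ± 825 CPM per kb, ahead of PSAP at 2005 ± 537 CPM per kb. Their ranges overlapped, at 2154 to 4064 and 1564 to 2730 CPM per kb, and in mouse 7 PSAP stood above CTSS. In DKO mice CTSS stood at 2825 ± 255 CPM per kb and PSAP at 1954 ± 178 CPM per kb, and CTSZ was at 1737 ± 218 CPM per kb. The lowest levels in WT mice were those of ATP6V0D2 at 1.05 ± 1.45 CPM per kb and CTSK at 1.90 ± 1.45 CPM per kb, both genes best known from osteoclasts. A few transcripts carried most of the signal. The 5 genes with the highest mean CPM within a genotype took 54.2% of the summed CPM of WT mice, 56.9% in the IL10RAKO and 56.2% in the DKO group. PSAP, CTSB, CTSC and CTSS were among them in every genotype, and the remaining gene was GRN in WT and CTSZ in IL10RAKO and DKO mice.

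**Figure D3:**
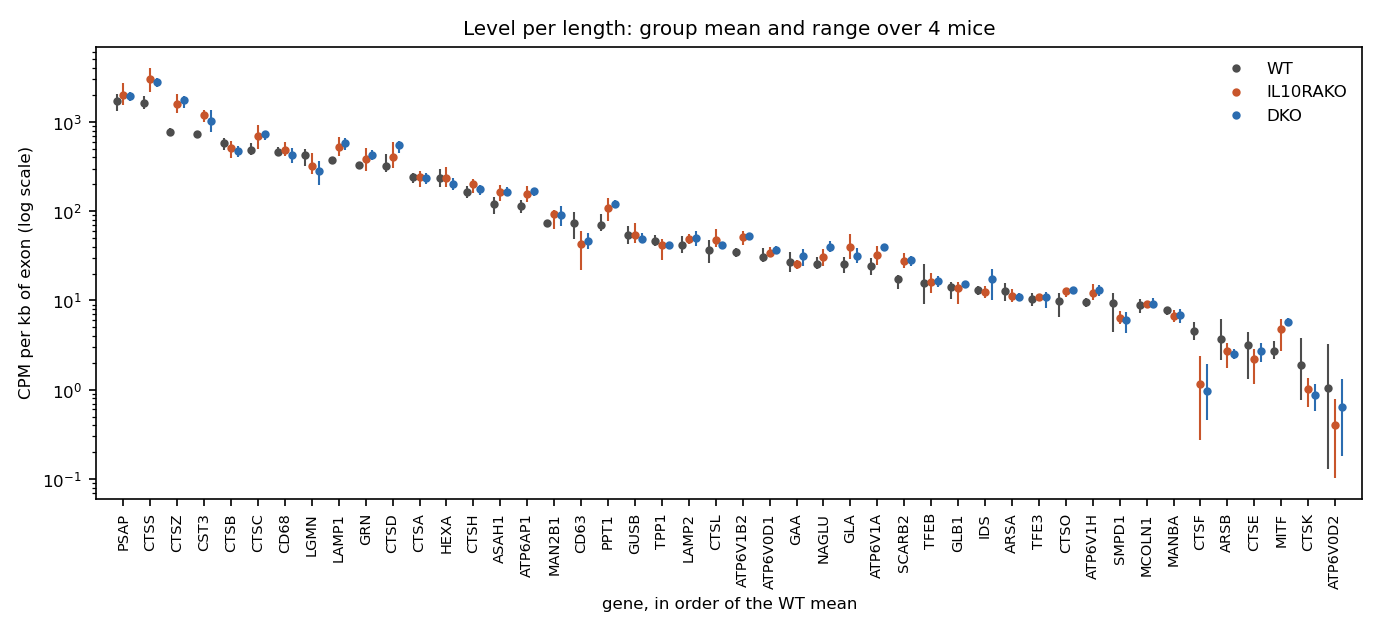
Level per exon length (y axis, CPM per kb, log scale) of the 46 lysosomal genes in order of their WT mean (x axis), with points for the mean and lines for the lowest to highest of 4 mice in each genotype. WT means run from 1725 for PSAP to 1.05 for ATP6V0D2, and CTSS rises from 1640 in WT to 2987 in IL10RAKO and 2825 in DKO mice.

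Among the proteases, the exopeptidase CTSZ changed most among the higher genes, and CTSS, the elastinolytic cathepsin that trims the invariant chain of MHC class II, had the highest level per exon length. CTSZ (chr2:174427493-174439039, GRCm38) stood at 1237, 1005, 1065 and 1091 CPM in WT mice 4, 5, 10 and 13. It stood at 2540, 1962, 1830 and 2926 CPM in IL10RAKO mice 1, 2, 7 and 8, and at 2609, 2801, 2061 and 2542 CPM in DKO mice 3, 9, 12 and 14. Every knockout mouse lay above every WT mouse. Its log2 fold change was 1.07 (SE 0.17, edgeR adjusted p = 0.000679) in IL10RAKO and 1.19 (SE 0.17, edgeR adjusted p = 0.000272) in DKO mice.

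CTSS (chr3:95526786-95556403) stood at 1982, 1875, 2641 and 2413 CPM in the WT mice, in the same order. Values were 4271, 3512, 2925 and 5518 CPM in IL10RAKO mice and 3921, 3886, 3356 and 4181 CPM in DKO mice. The groups did not overlap with WT, although IL10RAKO mouse 7 came close to WT mouse 10. On the log2 scale the difference was 0.86 (SE 0.19, edgeR adjusted p = 0.0073) in IL10RAKO and 0.78 (SE 0.19, edgeR adjusted p = 0.0116) in DKO mice. CTSZ and CTSS passed in both comparisons in every one of the 22 alternatives run for them that kept a test against 0.

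CTSD, the main aspartic protease of the lysosome (chr7:142375911-142388038), stood at 656, 680, 640 and 1027 CPM in WT mice, so that mouse 13 lay far above the other WT mice. IL10RAKO mice had 717, 913, 793 and 1414 CPM, and DKO mice 1060, 1423, 1417 and 1285 CPM. All DKO mice lay above all WT mice, by a narrow margin over mouse 13, whereas IL10RAKO and WT mice overlapped. The fitted log2 fold change was 0.79 (SE 0.22, edgeR adjusted p = 0.0244) in DKO and 0.35 (SE 0.22, edgeR adjusted p = 0.318) in IL10RAKO mice. The DKO call was lost without WT mouse 5 or 10 or DKO mouse 9 or 12 (adjusted p = 0.0587 to 0.0673). CTSC, the dipeptidyl peptidase that activates serine proteases of granules, reached 0.57 (SE 0.19, edgeR adjusted p = 0.0484) in DKO mice and was lost without any of WT mice 4, 5 and 13, IL10RAKO mice 1 and 2, or DKO mice 3, 9 and 14 (adjusted p = 0.0507 to 0.121). It held in only 7 of 22 alternatives, since RLE size factors, robust dispersion, the bias-adjusted deviance of edgeR 4, no filter, 10 counts in every library, limma on the deposited pseudocounts and library totals lost it too (adjusted p = 0.0504 to 0.172). The exons of CTSD overlap another annotated gene on the same strand, so reads there may have been counted for either.

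CTSF, a papain-type cathepsin (chr19:4855130-4860918), was the protease that fell. It stood at 21.1, 18.0, 28.9 and 22.9 CPM in WT mice, 5.36, 1.37, 12.1 and 4.76 CPM in IL10RAKO mice and 3.64, 3.67, 2.32 and 9.84 CPM in DKO mice. Every knockout mouse lay below every WT mouse in these 12. The log2 fold change was -1.94 (SE 0.53, edgeR adjusted p = 0.023) in IL10RAKO and -2.21 (SE 0.54, edgeR adjusted p = 0.0103) in DKO mice. The IL10RAKO call was lost without WT mouse 10, IL10RAKO mouse 1 or IL10RAKO mouse 8 (adjusted p = 0.0522 to 0.0715). In WT mouse 11 CTSF was at 0.07 CPM, and with that mouse in the fit neither call held (edgeR adjusted p = 0.284 and 0.202).

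Markers of other cells were lower beside CTSF. All 6 fibroblast markers and all 6 markers of perivascular-type resident macrophages were lower in both comparisons. The fibroblast markers, of which COL3A1 was the most abundant, summed to 294, 577, 301 and 553 CPM in WT mice, 53.7, 22.0, 21.6 and 15 CPM in IL10RAKO mice and 17.2, 16.1, 31.6 and 67.0 CPM in DKO mice. No fibroblast marker was at 0 in any of the 12 libraries. The perivascular-type markers, led by MRC1, summed to 980 to 1258 CPM in WT mice, 66.0 to 259 CPM in IL10RAKO mice and 33.6 to 87.0 CPM in DKO mice. The CCR2KO mouse had CTSF at 55.2 CPM, above every compared WT mouse, with fibroblast markers at 681 CPM, also above them, and perivascular-type markers at 792 CPM, below them. WT mouse 11 had 1 read of CTSF, with fibroblast markers at 263 CPM and perivascular-type markers at 617 CPM. Fibroblasts would not pass the CD45+ gate of the sort. The part of fibroblasts and perivascular-type macrophages in the CTSF result was not tested.

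The other 9 proteases passed in neither comparison. Of all 14, 2 were higher and 1 lower in IL10RAKO mice, and 4 were higher and 1 lower in DKO mice. Over all genes tested 8.7% were higher and 7.1% lower in IL10RAKO mice, and 9.23% and 9.22% in DKO mice. CTSB and CTSL, endopeptidases of broad specificity, had log2 fold changes of -0.18 and 0.37 in IL10RAKO and -0.30 and 0.17 in DKO mice. LGMN, the asparaginyl endopeptidase, had -0.40 and -0.61, and CTSH, an aminopeptidase, had 0.29 and 0.13. The largest interval belonged to CTSK, a collagen-degrading cathepsin, at -1.12 (95% interval -2.38 to 0.15) in DKO mice. CTSK stood at only 0.88 to 5.79 CPM in the 12 mice. CTSA, CTSE, CTSO and TPP1 had log2 fold changes between -0.52 and 0.39 in both comparisons.

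CST3, or cystatin C, is a secreted inhibitor of cysteine cathepsins (chr2:148871722-148875692). It stood at 1003, 875, 895 and 902 CPM in WT mice, 1666, 1267, 1388 and 1724 CPM in IL10RAKO mice and 1719, 1302, 966 and 1135 CPM in DKO mice. All IL10RAKO mice lay above WT, whereas DKO mouse 12 lay within the WT range. Its log2 fold change was 0.72 (SE 0.18, edgeR adjusted p = 0.0139) in IL10RAKO and 0.48 (SE 0.18, edgeR adjusted p = 0.0793) in DKO mice, and the knockouts differed from each other by -0.24 (95% interval -0.62 to 0.14). Of 6 cysteine protease inhibitors outside the 46 genes, the 2 tested were higher in each comparison, where 8.7% and 9.23% of all genes were higher. CST7, an inhibitor targeted to the lysosome, rose by 2.2 in IL10RAKO and 2.82 in DKO mice on the log2 scale (edgeR adjusted p = 0.000635 and 8.42e-05). CSTB, a cytosolic inhibitor, rose by 0.97 and 0.96 (edgeR adjusted p = 0.0077 and 0.00717). The other 4 inhibitors listed were too low to be tested.

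**Figure D4:**
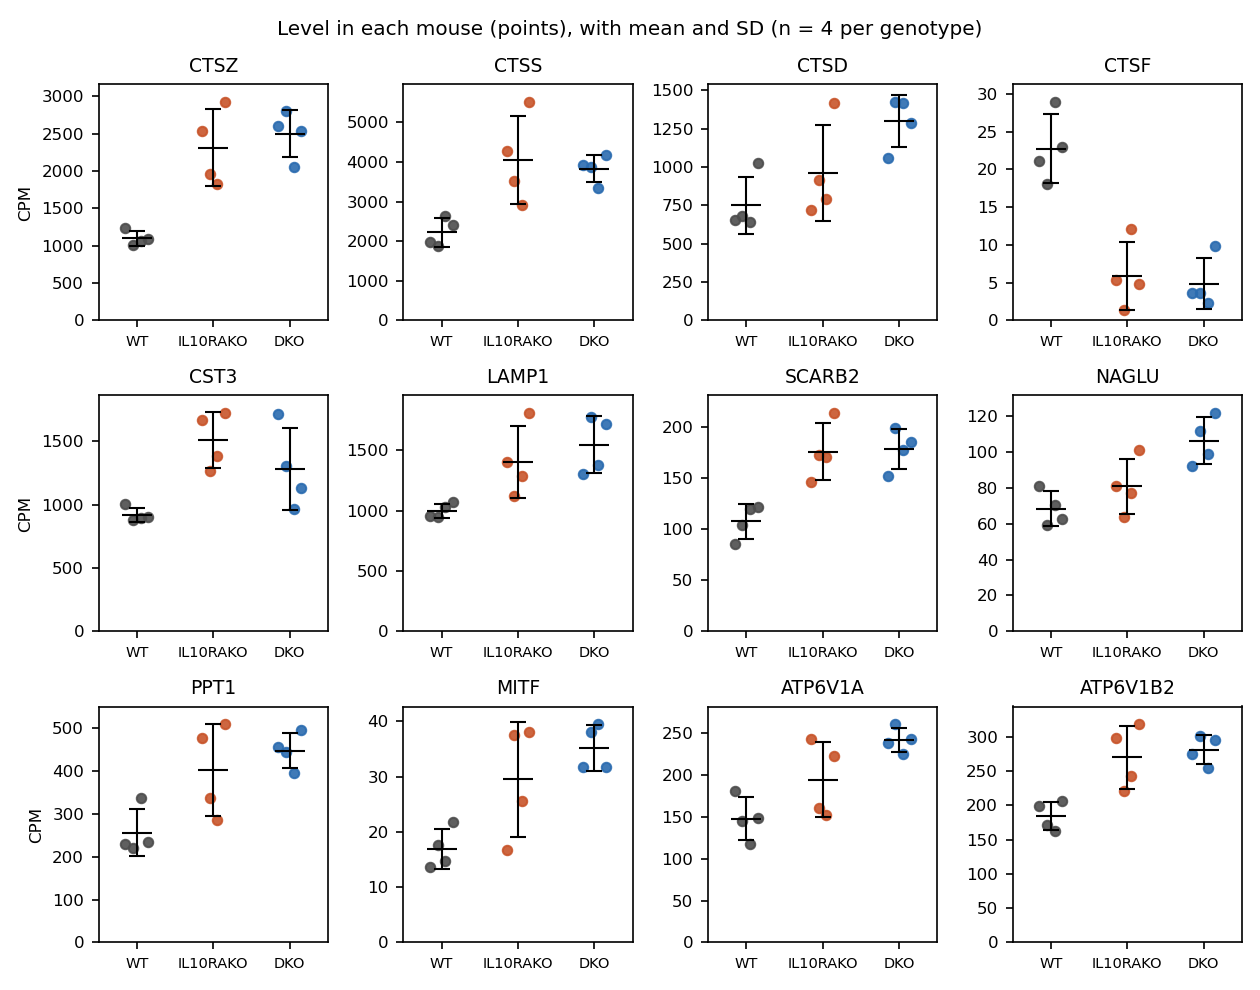
CPM (y axis, from 0) of 12 lysosomal genes in each WT, IL10RAKO and DKO mouse (points), with mean and SD as bars (n = 4 mice). CTSZ is above every WT mouse in all 8 knockout mice and CTSF is below. CTSD, NAGLU, PPT1, MITF and ATP6V1A overlap with WT in IL10RAKO mice, and CST3 does in DKO mice.

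Of the 6 membrane proteins, SCARB2 was higher in both knockouts and LAMP1 in DKO mice. That is 1 of 6 in IL10RAKO and 2 of 6 in DKO mice, where 8.7% and 9.23% of all genes were higher. SCARB2, or LIMP-2, carries beta-glucocerebrosidase to the lysosome (chr5:92441314-92506833). It stood at 85.2, 104, 120 and 122 CPM in WT mice, 146, 172, 171 and 214 CPM in IL10RAKO mice and 152, 199, 178 and 186 CPM in DKO mice. No knockout mouse fell within the WT range. On the log2 scale the difference was 0.70 (SE 0.16, edgeR adjusted p = 0.00932) in IL10RAKO and 0.73 (SE 0.16, edgeR adjusted p = 0.00671) in DKO mice.

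LAMP1 is a heavily glycosylated protein of the lysosomal membrane (chr8:13159161-13175338), and had the highest level per length of its class over the mean of the 3 genotypes. It stood at 953, 945, 1027 and 1070 CPM in WT mice, 1403, 1118, 1284 and 1809 CPM in IL10RAKO mice and 1307, 1774, 1380 and 1721 CPM in DKO mice. All 8 knockout mice lay above WT, but IL10RAKO mouse 2 only narrowly. The fitted log2 fold change was 0.63 (SE 0.17, edgeR adjusted p = 0.0179) in DKO and 0.49 (SE 0.17, edgeR adjusted p = 0.0637) in IL10RAKO mice. Without DKO mouse 9 or 14 the DKO call was lost (adjusted p = 0.0576 and 0.0535). With WT mouse 11 in the fit LAMP1 also passed as higher in IL10RAKO mice.

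CD68, a scavenger receptor used as a macrophage marker, had more per length than LAMP1 in WT mice and passed in neither comparison, with log2 fold changes of 0.06 and -0.11 (95% intervals -0.30 to 0.41 and -0.46 to 0.25). LAMP2 and the calcium channel MCOLN1 also missed the threshold in both, at 0.20 and 0.23 for LAMP2 and 0.03 and 0.03 for MCOLN1. CD63, a tetraspanin, had -0.78 (edgeR adjusted p = 0.0779) in IL10RAKO and -0.64 (edgeR adjusted p = 0.13) in DKO mice. Of 17 further lysosomal membrane proteins and transporters, 6 were higher and 0 lower in each comparison, where 8.7% and 9.23% of all genes were higher in IL10RAKO and DKO mice. CLCN7, a chloride-proton exchanger, rose by 1.33 and 1.85 on the log2 scale (edgeR adjusted p = 0.00141 and 9.84e-05). MFSD1, a transporter of the lysosomal membrane, rose by 0.68 and 0.79 (edgeR adjusted p = 0.00513 and 0.00159).

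Of the 11 glycosidases and sulfatases, none passed in IL10RAKO mice, where their median log2 fold change was -0.05, and 1 passed as higher in DKO mice, where the median was 0.12. Over all genes 8.7% were higher and 7.1% lower in IL10RAKO mice and 9.23% were higher in DKO mice, so that with 11 genes both counts are near the background. That gene was NAGLU, which removes N-acetylglucosamine from heparan sulfate (chr11:101070012-101077672). It stood at 80.9, 59.3, 70.3 and 62.8 CPM in WT mice, 81.0, 64.0, 77.3 and 101 CPM in IL10RAKO mice and 92.2, 112, 98.8 and 122 CPM in DKO mice. DKO mice lay above all WT mice and IL10RAKO mice overlapped with them. The log2 fold change was 0.63 (SE 0.17, edgeR adjusted p = 0.0179) in DKO and 0.24 (SE 0.17, edgeR adjusted p = 0.376) in IL10RAKO mice. The call was lost without WT mouse 5, DKO mouse 9 or DKO mouse 14 (adjusted p = 0.0515 to 0.0571), and with WT mouse 11 in the fit (adjusted p = 0.0598).

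HEXA, the alpha subunit of beta-hexosaminidase (chr9:59539540-59565109), had the highest level per length of this class. It stood at 367, 436, 598 and 471 CPM in WT mice, 421, 371, 434 and 631 CPM in IL10RAKO mice and 347, 426, 362 and 468 CPM in DKO mice. The groups overlapped fully, and the log2 fold changes were -0.01 and -0.22 (95% intervals -0.43 to 0.41 and -0.64 to 0.19). GLA, the alpha-galactosidase, had 0.66 (edgeR adjusted p = 0.0622) in IL10RAKO mice, where mice 2 and 7 stood at 180 and 151 CPM and mice 1 and 8 at 97.1 and 95.8 CPM. GLA passed as higher there in 4 of 22 alternatives: DESeq2, the bias-adjusted deviance of edgeR 4, and without IL10RAKO mouse 1 or 8. GLB1, GAA, GUSB, MANBA, MAN2B1, ARSA, ARSB and IDS lay between -0.53 and 0.42 in both comparisons.

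Of 23 tested enzymes outside the 46 genes, 1 was higher and 1 lower in IL10RAKO mice, and 4 were higher and 1 lower in DKO mice. Over all genes tested 8.7% were higher and 7.1% lower in IL10RAKO mice, so that the counts there were no larger than the background, and 9.23% were higher and 9.22% lower in DKO mice. ACP5, the tartrate-resistant acid phosphatase, rose by 0.92 and 0.98 on the log2 scale (edgeR adjusted p = 0.00176 and 0.000974). GALNS, which desulfates keratan sulfate, rose by 0.57 in DKO mice (edgeR adjusted p = 0.0203) and lost its call without WT mouse 10, DKO mouse 9 or DKO mouse 14 (adjusted p = 0.0586 to 0.0651), with WT mouse 11 in the fit (adjusted p = 0.0775) and with library totals (adjusted p = 0.14). DPP7, a dipeptidyl peptidase, fell by 1.01 and 1.05 (edgeR adjusted p = 0.0172 and 0.0124).

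Among the lipid hydrolases and their activators, PPT1 was higher in both knockouts and the abundant PSAP passed in neither. With 5 genes in the class, 1 higher gene is near the background of 8.7% and 9.23% of all genes. PPT1 removes palmitate from proteins (chr4:122836242-122859175). It stood at 231, 221, 338 and 235 CPM in WT mice, where mouse 10 was far above the rest, 477, 336, 286 and 510 CPM in IL10RAKO mice and 456, 445, 395 and 495 CPM in DKO mice. DKO mice all lay above WT, whereas IL10RAKO mice 2 and 7 did not exceed WT mouse 10. Its log2 fold change was 0.65 (SE 0.20, edgeR adjusted p = 0.0403) in IL10RAKO and 0.81 (SE 0.20, edgeR adjusted p = 0.012) in DKO mice. The IL10RAKO call was lost without WT mouse 4, 5 or 13, IL10RAKO mouse 1 or 8, or DKO mouse 9, which shares in the estimate of spread (adjusted p = 0.0537 to 0.1285), and with WT mouse 11 in the fit (adjusted p = 0.0801). It held in 12 of 22 alternatives, and was also lost with 10 counts in every library (adjusted p = 0.0524), only the 2 genotypes compared (adjusted p = 0.0899) and library totals (adjusted p = 0.223).

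PSAP (chr10:60277627-60302597) stood at 4608, 3644, 5696 and 4991 CPM in WT mice, 4489, 5733, 7492 and 4293 CPM in IL10RAKO mice and 4705, 5862, 5328 and 5551 CPM in DKO mice. The groups overlapped, at log2 fold changes of 0.22 and 0.18 (95% intervals -0.20 to 0.63 and -0.24 to 0.60). ASAH1, the acid ceramidase, had 0.45 in both comparisons (edgeR adjusted p = 0.102 and 0.0917), and GRN, the progranulin precursor, had 0.22 and 0.38. SMPD1, the acid sphingomyelinase, had -0.53 and -0.60 (edgeR adjusted p = 0.233 and 0.162).

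Of the transcription factors, MITF was higher, and TFEB and TFE3 stood at like means in the genotypes. Over all genes 8.7% were higher in IL10RAKO and 9.23% in DKO mice, and with 3 factors nothing is read from the count. MITF (chr6:97807052-98021349) was at 13.7, 17.5, 14.7 and 21.8 CPM in WT mice, 16.6, 37.6, 25.6 and 38.1 CPM in IL10RAKO mice and 31.6, 38.04, 39.5 and 31.6 CPM in DKO mice. DKO mice lay above WT without overlap, and IL10RAKO mouse 1 lay within the WT range. On the log2 scale the difference was 1.06 (SE 0.25, edgeR adjusted p = 0.00857) in DKO and 0.80 (SE 0.25, edgeR adjusted p = 0.0414) in IL10RAKO mice. The IL10RAKO call did not hold without WT mouse 4, 5 or 10, IL10RAKO mouse 2 or 8, or DKO mouse 9, 12 or 14 (adjusted p = 0.0518 to 0.131), nor with WT mouse 11 in the fit (adjusted p = 0.121). It held in 9 of 22 alternatives, and was also lost with limma on the deposited pseudocounts (adjusted p = 0.0599), 10 counts in every library (adjusted p = 0.0529), only the 2 genotypes compared (adjusted p = 0.0936) and library totals (adjusted p = 0.18).

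TFEB (chr17:47737030-47792419), with the highest level per length of the 3 factors, stood at 144, 81.1, 76.4 and 51.5 CPM in WT mice, 115, 69.3, 99.2 and 81.5 CPM in IL10RAKO mice and 106, 101, 79.6 and 89.2 CPM in DKO mice. WT mice spanned the whole range of the knockouts, and the log2 fold changes were 0.05 and 0.09 (95% intervals -0.51 to 0.61 and -0.47 to 0.65). TFE3 (chrX:7762560-7775202) stood at 111, 83.2, 81.0 and 113 CPM in WT mice, 106, 90.1, 108 and 102 CPM in IL10RAKO mice and 76.9, 105, 105 and 116 CPM in DKO mice. Its log2 fold changes were 0.06 and 0.05 (95% intervals -0.29 to 0.42 and -0.31 to 0.41). These are transcript levels, and the activity of the factors, which is set largely by their place in the cell, was not measured. Of 13 genes for mTORC1 docking and control of TFEB, 1 was higher in each comparison and 1 was lower in DKO mice. These counts are near the shares of all genes, of which 8.7% and 9.23% were higher and 9.22% were lower in DKO mice, and nothing is read from them about the list. The higher gene was TFEC, the fourth member of the family, at 1.11 in IL10RAKO (edgeR adjusted p = 0.0305) and 1.45 in DKO mice (edgeR adjusted p = 0.00602). Its IL10RAKO call was lost without WT mouse 4, 5 or 10 or IL10RAKO mouse 2 or 8 (adjusted p = 0.0544 to 0.109), with only the 2 genotypes compared (adjusted p = 0.0784) and with library totals (adjusted p = 0.0916). FLCN, folliculin, fell by 0.78 in DKO mice (edgeR adjusted p = 0.00927).

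The proton pump is built of a cytosolic V1 sector that hydrolyses ATP and a membrane V0 sector that carries protons. Of its 6 subunits, 1 passed in IL10RAKO and 3 in DKO mice, all higher, where 8.7% and 9.23% of all genes were higher, and 1 of 6 is near that background. The class medians of 0.38 and 0.50 were the largest of the classes with more than 1 gene. ATP6V1B2, a nucleotide-binding subunit of V1 (chr8:69088646-69113711), stood at 199, 171, 162 and 206 CPM in WT mice, 297, 221, 242 and 318 CPM in IL10RAKO mice and 275, 301, 254 and 294.8 CPM in DKO mice. No knockout mouse fell within the WT range. The fitted log2 fold change was 0.55 (SE 0.15, edgeR adjusted p = 0.0244) in IL10RAKO and 0.61 (SE 0.15, edgeR adjusted p = 0.0122) in DKO mice. The IL10RAKO call was lost without WT mouse 5 or 10 or IL10RAKO mouse 1 or 8 (adjusted p = 0.0651 to 0.0802), and with only the 2 genotypes compared (adjusted p = 0.0651).

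ATP6V1A, the catalytic subunit (chr16:44085402-44139705), stood at 181, 146, 118 and 149 CPM in WT mice, 243, 160, 152 and 224 CPM in IL10RAKO mice and 239, 261, 225 and 243 CPM in DKO mice. DKO mice all exceeded WT mice, and IL10RAKO mice 2 and 7 lay within the WT range. The log2 fold change was 0.71 (SE 0.18, edgeR adjusted p = 0.0133) in DKO and 0.40 (SE 0.18, edgeR adjusted p = 0.16) in IL10RAKO mice.

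ATP6AP1, an accessory subunit with the highest level per length of the class (chrX:74297097-74304721), stood at 402, 346, 348 and 286 CPM in WT mice, 556, 382, 387 and 578 CPM in IL10RAKO mice and 506, 517, 452 and 546 CPM in DKO mice. DKO mice again lay above WT, and IL10RAKO mice 2 and 7 did not exceed WT mouse 4. Its log2 fold change was 0.55 (SE 0.17, edgeR adjusted p = 0.0382) in DKO and 0.46 (SE 0.17, edgeR adjusted p = 0.0867) in IL10RAKO mice. The DKO call was lost without WT mouse 5, 10 or 13 or DKO mouse 3, 9 or 14 (adjusted p = 0.0683 to 0.109), with WT mouse 11 in the fit (adjusted p = 0.0517) and with 10 counts in every library (adjusted p = 0.0519). ATP6V1H, a regulatory subunit, had 0.36 and 0.45 (edgeR adjusted p = 0.151 and 0.0722).

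The d subunit of V0 has a widely expressed form, ATP6V0D1, and a form known from osteoclasts, ATP6V0D2. ATP6V0D1 (chr8:105524465-105566047) stood at 48.9, 49.8, 51.5 and 70.05 CPM in WT mice, 54.9, 70.6, 62.6 and 56.0 CPM in IL10RAKO mice and 59.0, 64.6, 70.4 and 72.2 CPM in DKO mice. The groups overlapped, at log2 fold changes of 0.15 and 0.27 (95% intervals -0.19 to 0.49 and -0.07 to 0.62). ATP6V0D2 (chr4:19876841-19922605) stood at 1.29, 0.35, 1.04 and 8.72 CPM in WT mice, 0.28, 0.69, 1.31 and 2.11 CPM in IL10RAKO mice and 0.50, 3.55, 1.90 and 0.99 CPM in DKO mice. The WT mean rests on mouse 13, and intervals of -3.36 to 0.64 and -2.67 to 1.25 left its direction unresolved. Per length, ATP6V0D1 exceeded ATP6V0D2 in every genotype, at 30.7 against 1.05 CPM per kb in WT mice.

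Of the 12 further pump subunits tested, 3 were higher and 1 lower in IL10RAKO mice, and 2 were higher and 1 lower in DKO mice. Over all genes 8.7% were higher and 7.1% lower in IL10RAKO mice and 9.23% and 9.22% in DKO mice, so the lower gene is near the background. ATP6V1E1, in the peripheral stalk, rose by 0.86 and 0.78 on the log2 scale (edgeR adjusted p = 0.00193 and 0.0034). TCIRG1, an a subunit of V0, rose by 0.80 in IL10RAKO mice (edgeR adjusted p = 0.0283) and lost its call without WT mouse 4 or 5 or IL10RAKO mouse 2 or 8 (adjusted p = 0.0562 to 0.0841), with WT mouse 11 in the fit (adjusted p = 0.057), with only the 2 genotypes compared (adjusted p = 0.0511) and with library totals (adjusted p = 0.134). ATP6V0A1, another a subunit, had -1.03 and -0.99 (edgeR adjusted p = 0.0163 and 0.0175). Its calls were lost without IL10RAKO mouse 1, 2 or 8 and without WT mouse 13 or DKO mouse 3 or 9, respectively (adjusted p = 0.0517 to 0.059).

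Newly made hydrolases reach the lysosome largely through mannose 6-phosphate receptors. The list of 7 genes for enzyme sorting also holds the receptor SORT1, which does not need that sugar, and SUMF1. Of the 7, 2 were higher in IL10RAKO and 3 in DKO mice, where 8.7% and 9.23% of all genes were higher. M6PR, the cation-dependent receptor, stood at 289, 275, 276 and 266 CPM in WT mice, 674, 670, 534 and 731 CPM in IL10RAKO mice and 687, 789, 654 and 744 CPM in DKO mice. All knockout mice lay well above WT, at log2 fold changes of 1.24 (SE 0.14, edgeR adjusted p = 3.55e-05) and 1.38 (SE 0.14, edgeR adjusted p = 1.16e-05). SUMF1, which activates sulfatases in the endoplasmic reticulum, rose by 0.87 and 0.93 (edgeR adjusted p = 0.00384 and 0.00219). In all, 15 of 74 tested genes of the 6 lists beyond the 46 were higher and 2 lower in IL10RAKO mice, and 18 were higher and 3 lower in DKO mice. That is 20.3% and 2.7% in IL10RAKO mice, where 8.7% and 7.1% of all genes passed, and 24.3% and 4.1% in DKO mice, where 9.23% and 9.22% passed.

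DKO and IL10RAKO mice were then compared directly. None of the 46 genes passed in edgeR, in DESeq2 or in limma on the deposited pseudocounts, and 6 of all 13136 genes tested passed in edgeR (0.0457%). At an unadjusted p under 0.05 in edgeR there were 2 of the 46, NAGLU at 0.39 (95% interval 0.03 to 0.76) and IDS, the iduronate sulfatase, at 0.47 (95% interval 0.0029 to 0.94), where 388 of all genes tested did so. The median log2 fold change was 0.03, against -0.01 over all genes, and it was below 0 without IL10RAKO mouse 2 (-0.02), DKO mouse 9 (-0.03) or DKO mouse 14 (-0.02). For 42 of the 46 the 95% interval lay within 1 log2 unit of 0 on either side, as it did for 63.4% of all genes tested. CTSZ had 0.11 (95% interval -0.25 to 0.48), CTSS -0.08 (-0.49 to 0.33), CTSD 0.43 (-0.04 to 0.91) and ATP6V1A 0.31 (-0.07 to 0.70). CTSD and ATP6V1A, called in DKO but not in IL10RAKO mice, were thus not shown to differ between the knockouts.

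The spread within a genotype is given as a description, with no test between genotypes. Among the genes with at least 100 reads in every mouse of a genotype, 42 or 43 of the 46, the median coefficient of variation was 17.9% in WT, 20.8% in IL10RAKO and 12.3% in DKO mice. IL10RAKO mouse 8 was the highest of its group for CTSZ, CTSS, CTSD, LAMP1, SCARB2 and PPT1, and mouse 7 the lowest for CTSZ, CTSS and PPT1. In WT mice the range of the coefficient was 5.8% for GRN to 48.4% for ARSB.

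**Figure D5:**
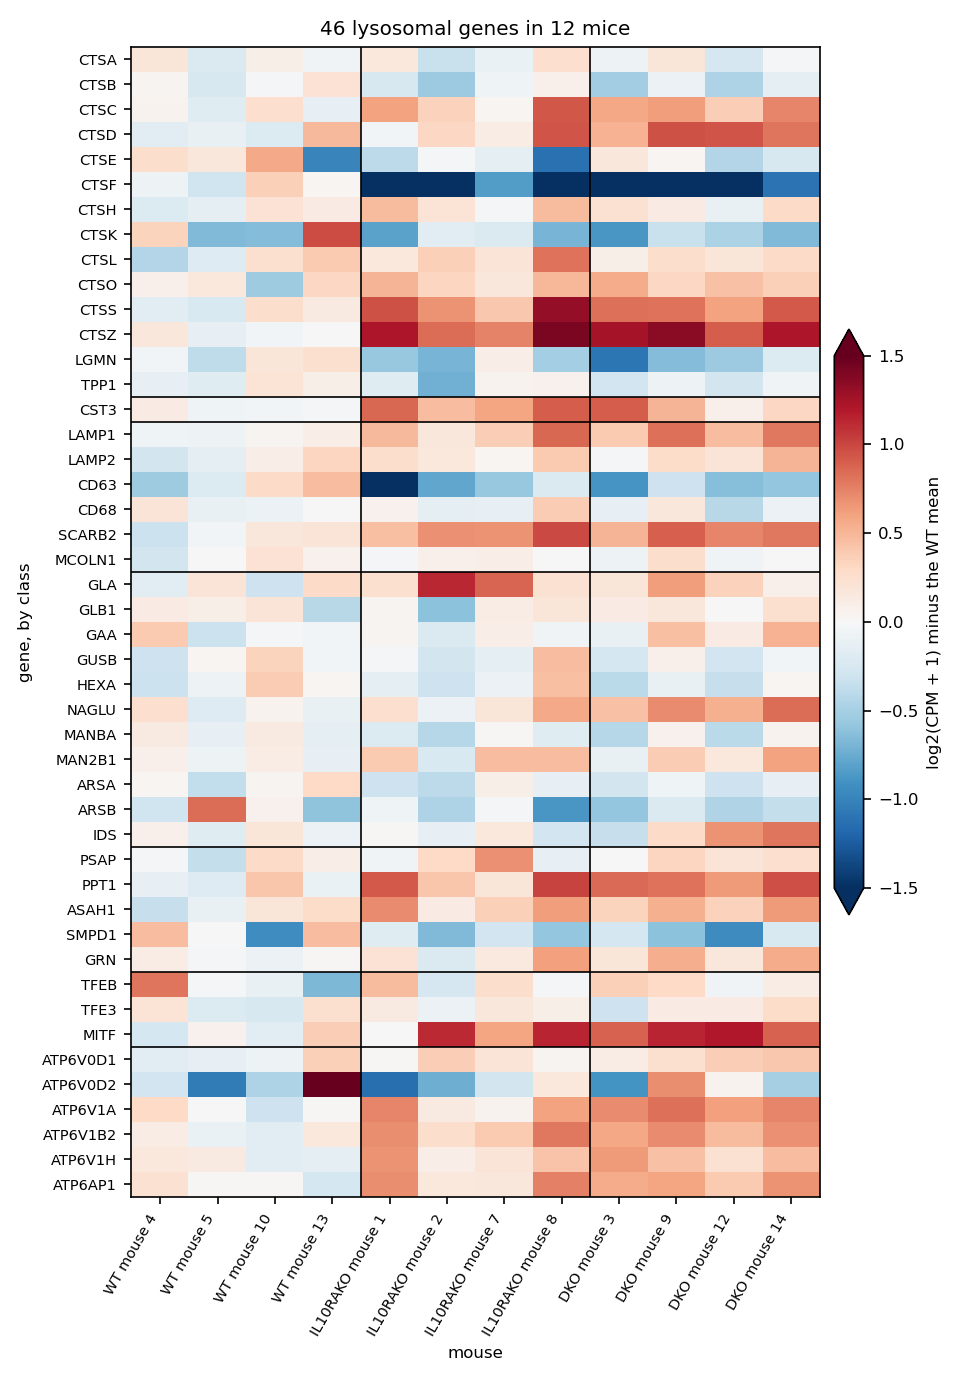
Heat map of the 46 lysosomal genes (y axis, by class) in 12 mice (x axis), as log2(CPM + 1) minus the WT mean, with colours cut at 1.5 in either direction. CTSZ, CTSS and SCARB2 are red in all 8 knockout mice, CTSF is blue in all 8, and among the glycosidases and sulfatases NAGLU is red in all 4 DKO mice.

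Markers of other cells also moved between the genotypes. Of 4 tested neutrophil markers all were higher in both knockouts, and the list, led by CSF3R, summed to 73.5 to 117 CPM in WT mice, 134 to 296 CPM in the IL10RAKO and 152 to 259 CPM in the DKO group. S100A9 had 0 reads in the 4 WT mice, and MPO had 0 reads in 10 of the 12 mice. Of 3 tested smooth muscle markers all were lower in both. Among monocyte genes, LY6C2 was higher in both comparisons, CCR2, deleted in DKO mice, was lower there, and VCAN passed in neither. In IL10RAKO mice CCR2 and VCAN had log2 fold changes of -0.32 and -0.26 that did not pass. LY6C2 stood at 5.80 to 7.64 CPM in WT, 38.4 to 177 CPM in IL10RAKO and 74.9 to 89.0 CPM in DKO mice. The 6 dendritic cell markers, led by CCR7, summed to 309 to 1402 CPM in WT mice, 1541 to 1924 CPM in IL10RAKO mice and 1023 to 1821 CPM in DKO mice. Among them CCR7 and XCR1 were higher in IL10RAKO mice, and in DKO mice CCR7 was higher and CD209A lower. Of 4 tested mast cell and eosinophil markers only KIT passed, and it stood at 10.6 to 32.7 CPM in WT mice, 70.3 to 96.7 CPM in IL10RAKO mice and 71.8 to 120 CPM in DKO mice. T and NK cell markers gave 1 lower of 7 tested in IL10RAKO mice, and 1 higher and 1 lower in DKO mice. Endothelial markers gave 1 lower of 4 in DKO mice and 0 in IL10RAKO mice. For B and plasma cells 0 of 5 markers passed in either comparison. They summed to 506 to 1793 CPM in WT, 386 to 1053 CPM in IL10RAKO and 469 to 1833 CPM in DKO mice. Epithelial markers, led by KRT8, summed to 1210 CPM in WT mouse 10 and 41.3 to 222 CPM in the other 11 compared mice. WT mouse 10 was also the WT mouse with most PPT1. Leaving out the highest WT value raises the difference from the knockouts by itself, so nothing is read from the PPT1 calls without it. The sort gates CD45+, Ly6G- and Ly6C- would leave out epithelium, smooth muscle, neutrophils and Ly6C+ monocytes. The part of other cells in the lysosomal results was not tested.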

How the data were processed

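Macrophage RNA was amplified with a SMART-seq v4 kit, which does not keep strand, and sequenced from 14 mice. The authors deposited whole-number counts per gene, made with bcl2fastq 2.20 and STAR 2.5.1b on UCSC mm10, and a table of pseudocounts from edgeR 3.34.0, treated here as a score and used only in an alternative with limma (log2 of the value + 1). The annotation, strand setting and handling of multi-mapping reads are not given in the sources used here. The exons of 13 of the 46 genes overlap those of another gene, so their counts are less certain.

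Counts were fitted in R 4.3.3 with the edgeR 4.0.16 quasi-likelihood test, TMM scaling and a minimum count of 10, over 12 libraries and 13136 genes, with Benjamini-Hochberg adjustment and a threshold of 0.05. DESeq2 1.42.0 and limma 3.58.1 served as alternatives. Plots were drawn with matplotlib 3.10.9 from tables made in pandas 2.3.3 (Python 3.11.15). On simulated data the scripts were tested before use. Libraries of 1 genotype differed by more than counting noise (chi-square per degree of freedom of at least 31.8), and 0 other columns of per-sample values were present. A floor of 3 reads corresponds to 0.124 to 0.211 CPM in the 12 libraries. Floors and the Wilson intervals of the read shares cover counting error only. The intervals of the log2 fold changes come from the edgeR fit and include the spread between mice.

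Values in every mouse are given for the 12 called genes with the smallest adjusted p, the highest gene per length of each class, the 3 transcription factors and the ATP6V0D1 and ATP6V0D2 pair. Of each further list at most the 2 called genes with the smallest adjusted p in each direction are named. M6PR is also given in every mouse, which was decided after its values were seen. The 46 genes and all lists were chosen with earlier results of these data known. Positions are from GENCODE vM21 (GRCm38), in which 46 of 46 genes were found, and promoters from RefSeq GRCm38.p6.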

Additional observations from a re-analysis of the deposited data

Results flagged for a closer look

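In 5 of 138 groups of 4 mice examined, 1 per gene and genotype, a mouse stood apart from the other 3 by more than Dixon's 95% critical value for the gap relative to the range. Chance alone flags about 5% of groups. WT mouse 13 accounted for 3 of them. It had CTSD at 1027 CPM, where the other WT mice had 639.8 to 679.5 CPM, ATP6V0D1 at 70.05 CPM, where the others had 48.89 to 51.48 CPM, and ATP6V0D2 at 8.723 CPM, where the others had 0.3517 to 1.289 CPM. WT mouse 10 had PPT1 at 337.6 CPM against 220.9 to 234.7 CPM in the other WT mice. IL10RAKO mouse 2 had MAN2B1, the lysosomal alpha-mannosidase, at 511.3 CPM against 786.1 to 825.3 CPM in the other IL10RAKO mice.

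Among the libraries outside the comparisons, 3 values lay above the highest of the 4 compared WT mice by more than the range of those mice. The CCR2KO mouse had CTSF at 55.2 CPM, where WT mice had 18.0 to 28.91 CPM. WT mouse 11 had MANBA, the beta-mannosidase, at 95.11 CPM against 48.28 to 59.02 CPM, and IDS at 126 CPM against 58.09 to 74.92 CPM. In the opposite direction, WT mouse 11 lay below the lowest WT mouse by more than that range for CTSF, at 0.0733 CPM against 18.0 to 28.91 CPM, for CST3, at 627.3 CPM against 875.5 to 1003 CPM, and for ATP6V1H, at 49.53 CPM against 82.79 to 103.4 CPM. The CCR2KO mouse did so for IDS, at 32.39 CPM against 58.09 to 74.92 CPM. WT mouse 11 had the fewest reads and the fewest genes detected of all 14 libraries. Each rests on a single library, and none was tested.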

How the results depend on the processing

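No call on the 46 genes changed direction under any alternative run. The number called became 0 in both comparisons with WT when a log2 fold change of at least 1 was tested for, and 5 in IL10RAKO mice when only the 2 genotypes compared were fitted. Leaving out 1 mouse at a time gave 5 to 10 genes called in IL10RAKO mice, with 5 without WT mouse 5, and 8 to 14 in DKO mice, with 8 without DKO mouse 9. Scaling by library totals moved the median log2 fold change to -0.147 in IL10RAKO and -0.0509 in DKO mice. Leaving out 1 mouse gave medians of 0.109 to 0.236 and 0.149 to 0.279. For the further pathway genes, whose alternatives were chosen after seeing the data, the number called fell from 17 to 1 and from 21 to 3 when a log2 fold change of at least 1 was tested for, and leaving out 1 mouse gave 12 to 19 and 12 to 25, with 12 without DKO mouse 9 and 13 without DKO mouse 14. No paired analysis was possible because the genotypes hold different mice and the replicate numbers only order them within a group.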
